A study of Homo sapiens with 4 samples.

Results

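The genes described here are 10 components of the Notch pathway, chosen by name from the 50868 genes listed in the deposited files: the receptors NOTCH1, NOTCH2 and NOTCH3, the nuclear partners RBPJ and MAML1, and the target genes HES1, HES4, HEY1, DTX1 and NRARP. Each name matched 1 gene. They were measured by RNA-seq in Jurkat cells, a human line grown from a T-cell leukemia and labeled wild type, which were kept for 24 h in DMSO, in 0.5 μM JQ1, in DMSO with 150 ng/ml PHA, or in 0.5 μM JQ1 with 150 ng/ml PHA. JQ1 blocks the bromodomains of the BET proteins, which bind acetylated histones and help transcription, DMSO is its solvent, and PHA is a plant lectin that activates T cells through surface glycoproteins. Each of the 4 conditions is represented by 1 library of 1 cell line. No difference between conditions therefore has a replicate check, no test between conditions was made, and all intervals cover counting error only.

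Notch receptors are cut after a ligand on a neighboring cell pulls on them. The last cut, by γ-secretase, frees the intracellular domain, which enters the nucleus and joins the DNA-binding protein RBPJ and a Mastermind coactivator such as MAML1 to switch on genes of the HES and HEY families, DTX1 and NRARP. In developing thymocytes this signal directs cells to the T lineage, and activating lesions of NOTCH1 are a frequent cause of T-cell acute lymphoblastic leukemia. Jurkat cells are known to carry a NOTCH1 allele with an insertion close to the membrane that makes the receptor active without a ligand.

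The start regions of HES1 and HES4 are shown because both encode repressors of the same family, both are textbook targets of RBPJ, and their reads moved differently between these libraries. The windows run from 250 bases before the start site to 50 bases after it and were taken from RefSeq (GRCh38.p14), on the strand of the gene, at chr3:194135898-194136197 (plus strand) for HES1 and chr1:1000048-1000347 (minus strand) for HES4. Capitals mark GTGGGAA, which contains the core letters that RBPJ recognizes, and any further TGGGAA on either strand.
HES1: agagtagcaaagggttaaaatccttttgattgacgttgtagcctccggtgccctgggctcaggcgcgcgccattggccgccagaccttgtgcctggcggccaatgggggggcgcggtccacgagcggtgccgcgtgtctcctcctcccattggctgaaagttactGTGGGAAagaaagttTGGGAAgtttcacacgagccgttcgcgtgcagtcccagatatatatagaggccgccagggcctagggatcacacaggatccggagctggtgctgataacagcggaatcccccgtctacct
HES4: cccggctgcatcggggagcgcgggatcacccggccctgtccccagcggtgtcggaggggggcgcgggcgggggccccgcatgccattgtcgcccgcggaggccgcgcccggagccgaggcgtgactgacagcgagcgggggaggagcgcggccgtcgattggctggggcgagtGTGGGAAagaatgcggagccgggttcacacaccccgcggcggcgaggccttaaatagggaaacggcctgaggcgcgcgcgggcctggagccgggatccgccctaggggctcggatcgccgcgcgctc
In HES1 the TGGGAA matches begin 84 and 70 bases before the start site, and the first of them is part of GTGGGAA. HES4 has 1 match, part of GTGGGAA, which begins 76 bases before the start site. The longer motif, searched on both strands, occurred in 6.25% of all 35116 RefSeq windows of this length, and TGGGAA, which it contains, in 24.0%. Windows were found for 8 of the 10 genes, all but HEY1 and DTX1. Of the 5 windows listed for RBPJ, 1 held GTGGGAA, at 2 places, and the windows of NOTCH1, NOTCH2, NOTCH3, NRARP and MAML1 held neither motif. A match is a description of letters and not a measured binding site.

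The libraries had total counts of 18620954 to 19685401 reads on genes, so that 3 counts correspond to between 0.152 and 0.161 CPM (counts scaled to library depth). All 14 T-cell markers examined were expressed, with a summed FPKM of 948 under DMSO, 711 under JQ1, 1276 under DMSO + PHA and 826 under JQ1 + PHA. FPKM scales the reads of a gene to its length and to the depth of its library. The 6 myeloid markers summed to at most 0.155 FPKM, and CSF1R, MPO and FCGR3A had no read. Of 5 B-cell markers only CD79A averaged an FPKM of 1 or more, and the list summed to 7.57 and 6.39 FPKM in the DMSO and DMSO + PHA libraries against 1.06 and 1.01 in the JQ1 and JQ1 + PHA libraries. A list of 5 stromal and epithelial markers, in which PECAM1 supplied most of the signal and COL3A1 and EPCAM had no read, summed to 14.4 and 19.8 FPKM in the libraries without JQ1 and to 2.19 and 2.93 in those with JQ1. Among the T-cell markers, 4 of 14 were at least 2-fold lower with JQ1 without PHA, against 8.65% of all genes, and 9 of 14 with PHA, against 8.00%. All libraries came from 1 cell line, so the list names describe the markers and do not show that other cell types were present. The part of these shifts in the results on Notch genes was not tested. In bulk RNA, fewer cells expressing a gene and less of its RNA per cell cannot be told apart. HEXIM1, used as a response gene of BET inhibition, was 3.0-fold higher in JQ1 alone and 3.02-fold higher when PHA was present, and CD69, used as an activation marker, was 19.4-fold higher with PHA in DMSO and 4.10-fold higher in JQ1.

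Averaged over the libraries, 8 of the 10 genes reached an FPKM of 1 or more. HEY1 and NRARP, with means of 0.237 and 0.420, fell below this limit and are described by their counts. Mean FPKM was 10.3 for RBPJ, 9.40 for NOTCH1, 8.76 for MAML1, 7.08 for DTX1, 5.46 for HES4, 4.77 for NOTCH2, 3.54 for NOTCH3 and 1.58 for HES1. Neighbors in this order overlapped in their ranges over the libraries, from RBPJ down to HES1, where the highest value of HES1 (2.51) passed the lowest of NOTCH3 (2.37). HES1, from 1.20 upward, did not overlap with NRARP, which reached at most 0.781, and NRARP and HEY1 overlapped.

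**Figure D1:**
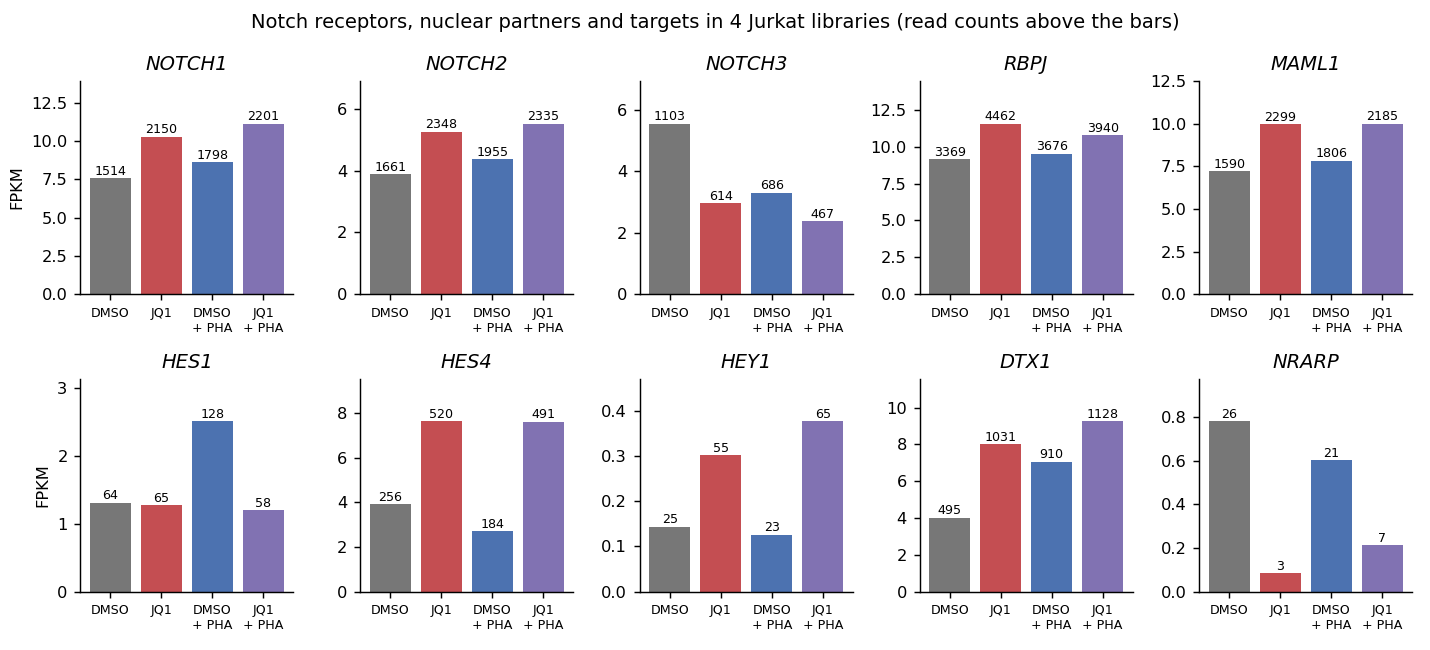
FPKM of the 10 genes (y axis, from 0, with its own scale for each gene) in the DMSO, JQ1, DMSO + PHA and JQ1 + PHA libraries (x axis), with the read count written above each bar and no error bar, since each condition had 1 library. HES4 stood at 7.62 and 7.60 in the JQ1 libraries and at 3.92 and 2.70 in the others, whereas HES1 was highest, at 2.51, in the DMSO + PHA library.

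The order of levels between genes depends on the length by which counts are divided. Counts and FPKM together imply a length of 3468 bases for HES4, whose locus spans 1211, and 9278 bases for HEY1, whose locus spans 3854. An implied length above the span of the locus, by more than 1%, was found in 1390 of 16684 genes with at least 20 counts in all. When the counts were divided by the union of the exons in GENCODE release 44, the levels in the DMSO library, in RPKM (reads scaled to kilobases and to library depth), were 14.2 for MAML1, 12.2 for HES4, 11.7 for RBPJ, 6.42 for NOTCH1, 6.23 for NOTCH3, 6.03 for DTX1, 5.27 for NOTCH2, 1.65 for HES1, 0.523 for NRARP and 0.242 for HEY1. HES4, which was sixth by deposited FPKM in that library, was thus second by exon length, while the ratio of a gene between libraries does not depend on its length.

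**Figure D2:**
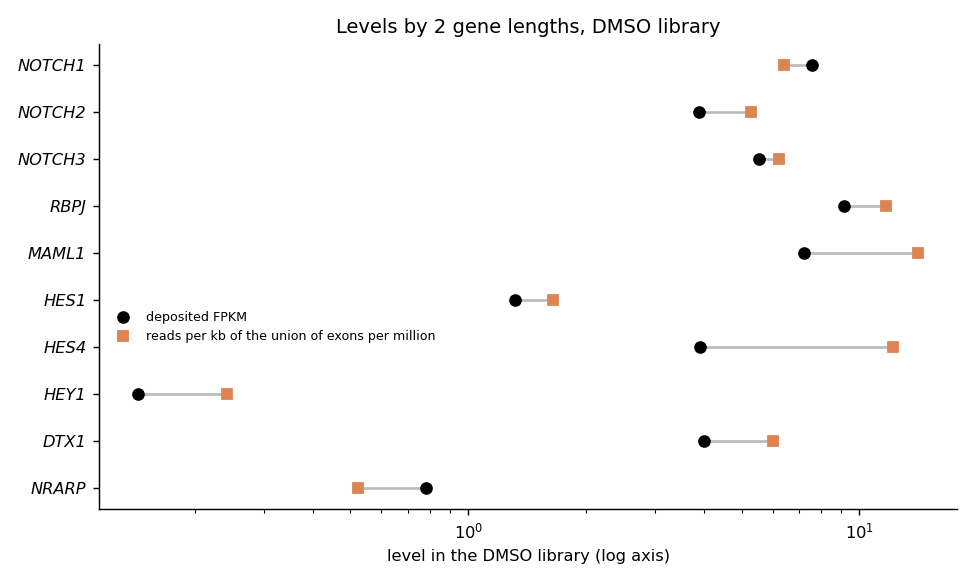
Level of each gene in the DMSO library on a log axis, as deposited FPKM (circles) and as RPKM over the union of exons (squares), with a gray line joining the values of a gene. The largest shift is that of HES4, from 3.92 to 12.2, while HES1, NRARP and HEY1 are the lowest on both scales.

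The receptors did not behave as a block. NOTCH1 (ENSG00000148400, GRCh38, chromosome 9, 136494444 to 136545862, minus strand), the main Notch receptor of thymocytes, had 1514 counts and an FPKM of 7.58 under DMSO, 2150 and 10.3 under JQ1, 1798 and 8.60 under DMSO + PHA, and 2201 and 11.1 under JQ1 + PHA. NOTCH2 (ENSG00000134250, chromosome 1, 119911553 to 120069626, minus strand), the receptor used by marginal zone B cells, had 1661, 2348, 1955 and 2335 counts in the same order, and FPKM of 3.89, 5.26, 4.38 and 5.53. Both receptors were thus higher in the libraries with JQ1. NOTCH3 (ENSG00000074181, chromosome 19, 15159038 to 15200981, minus strand), itself a target of NOTCH1 signaling in T-cell leukemia, went the other way, with 1103 counts and an FPKM of 5.54 under DMSO, 614 and 2.95 under JQ1, 686 and 3.30 under DMSO + PHA, and 467 and 2.37 under JQ1 + PHA. It was highest in the DMSO library and lowest when both JQ1 and PHA were present. NOTCH4, the remaining receptor, had 1 read in all.

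Reads of NOTCH2 are uncertain to some degree, because NOTCH2NL is a partial copy of the gene and the handling of reads with several alignments is not given in the sources used here. NOTCH2NL had 46 to 52 counts, or 1.93% to 2.98% of the reads on both genes. The RBPJ pseudogenes RBPJP2, RBPJP5, RBPJP6 and RBPJP7 and the NOTCH2 pseudogene NOTCH2P1 had no read in any library. RP11-413M3.4, on the other strand within NOTCH1, had 1 read in all, and LTC4S, which overlaps the end of MAML1, had 0. The long noncoding RNA NALT1 (chromosome 9, 136546212 to 136549893, plus strand), which starts 350 bases beyond the NOTCH1 locus on the opposite strand, had 22 counts with DMSO, 6 under JQ1, 15 under DMSO + PHA and 7 under JQ1 + PHA. Its log2 ratio for JQ1 against DMSO was -1.94 (95% interval -3.53 to -0.59), while that of NOTCH1 lay above 0. With PHA the ratio of NALT1 was -1.02, and its interval, which reached 0.36, included 0. NALT1 was chosen after its values were seen.

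The nuclear partners had the smallest ratios of highest to lowest FPKM. RBPJ (ENSG00000168214, chromosome 4, 26163455 to 26435131, plus strand), the DNA-binding subunit, had 3369 counts and an FPKM of 9.15 under DMSO, 4462 and 11.6 under JQ1, 3676 and 9.54 under DMSO + PHA, and 3940 and 10.8 under JQ1 + PHA. Its highest and lowest FPKM differed by 1.27-fold, the narrowest range of the 10 genes. MAML1 (ENSG00000161021, chromosome 5, 179732850 to 179796511, plus strand), the coactivator, had 1590, 2299, 1806 and 2185 counts and FPKM of 7.21, 9.97, 7.83 and 10.0 in the same order. With or without PHA, both partners were higher when JQ1 was present.

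Among the HES and HEY genes, which encode basic helix-loop-helix repressors, HES1 and HES4 had different patterns. HES1 (ENSG00000114315, chromosome 3, 194136145 to 194138732, plus strand) had 64 counts and an FPKM of 1.31 under DMSO, 65 and 1.28 under JQ1, 128 and 2.51 under DMSO + PHA, and 58 and 1.20 under JQ1 + PHA. The DMSO + PHA library stood apart and the remaining libraries were close to each other. HES4 (ENSG00000188290, chromosome 1, 998962 to 1000172, minus strand) had 256 counts and an FPKM of 3.92 under DMSO, 520 and 7.62 under JQ1, 184 and 2.70 under DMSO + PHA, and 491 and 7.60 under JQ1 + PHA. Its lowest value was in the library in which HES1 was highest. HEY1 (ENSG00000164683, chromosome 8, 79764010 to 79767863, minus strand) had 25, 55, 23 and 65 counts in the same order, so that both JQ1 libraries were above both libraries without it.

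DTX1 and NRARP both act back on the receptor. DTX1 (ENSG00000135144, chromosome 12, 113056709 to 113098028, plus strand), an E3 ubiquitin ligase that binds the intracellular domain, had 495 counts and an FPKM of 4.02 under DMSO, 1031 and 8.00 under JQ1, 910 and 7.06 under DMSO + PHA, and 1128 and 9.25 under JQ1 + PHA. Every treated library was above the DMSO library. NRARP (ENSG00000198435, chromosome 9, 137300482 to 137302251, minus strand), an ankyrin repeat protein that joins the RBPJ complex and promotes loss of the intracellular domain, had 26 counts with DMSO, 3 under JQ1, 21 under DMSO + PHA and 7 under JQ1 + PHA, at FPKM of 0.781, 0.0861, 0.603 and 0.212. Both JQ1 libraries were below both libraries without it, at counts so low that the ratios below are imprecise.

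JQ1 was compared with DMSO in cells without PHA, called resting here, to describe how these libraries differed. Without PHA, HES4, DTX1 and HEY1 were about double in the JQ1 library, NOTCH1, NOTCH2, RBPJ and MAML1 were higher by less than 1.5-fold, HES1 was level, and NOTCH3 and NRARP were lower. HES4 was 1.94-fold higher, or 0.96 as the log2 of the ratio of its count shares (95% exact interval 0.74 to 1.18). DTX1 was 1.99-fold higher (0.99, 0.84 to 1.15), and HEY1 2.1-fold higher (1.07, 0.37 to 1.82). The ratios of MAML1 (1.38-fold), NOTCH1 (1.36-fold), NOTCH2 (1.35-fold) and RBPJ (1.27-fold) were smaller, and their intervals lay above 0. NOTCH3 was 1.88-fold lower (-0.91, -1.05 to -0.77) and NRARP 9.06-fold lower (-3.18, -5.55 to -1.47). For HES1 the log2 ratio was -0.04 (-0.56 to 0.48), so that any difference was too small to detect with these counts.

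For counts of genes past 2-fold the log2 ratio of FPKM was used after 0.1 was added, which understates the ratios of low genes, over the 11503 genes that averaged an FPKM of 1 or more. Of the 8 Notch genes among them, 0 were at least 2-fold higher and 0 at least 2-fold lower with JQ1 without PHA, against 5.22% and 8.65% of all genes. DTX1, at 0.98, and HES4, at 0.94, were just inside the limit of 1, and 1 gene, DTX1, was past it after TMM or DESeq2 scaling. The counting interval lay above 0 for 6 of the 8 and below 0 for 1, against 36.9% and 38.7% of all genes. The median log2 ratio of the 8 was 0.43, and that of all genes was -0.01.

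The same comparison was then made between the libraries with PHA. HES4 was 2.82-fold higher with JQ1 (95% interval 2.38-fold to 3.36-fold), and HEY1 was 2.99-fold higher (log2 ratio 1.58, 0.87 to 2.33). HES1 was 2.09-fold lower (-1.06, -1.54 to -0.60), NRARP 2.84-fold lower (-1.50, -2.98 to -0.22) and NOTCH3 1.39-fold lower (-0.47, -0.65 to -0.30). DTX1 (1.31-fold), NOTCH1 (1.29-fold), MAML1 (1.28-fold), NOTCH2 (1.26-fold) and RBPJ (1.13-fold) were higher, with intervals above 0.

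With the pseudocount, 1 of the 8 genes, HES4, was at least 2-fold higher with JQ1 in the presence of PHA, against 3.69% of all genes, and 1, HES1, was at least 2-fold lower, against 8.00%. The value of HES1 was -1.0, at the limit itself, and it was no longer past 2-fold with a pseudocount of 1 or under any of the 3 rescalings tried. The counting interval lay above 0 for 6 of the 8 genes and below 0 for 2, against 34.6% and 38.2% of all genes. The median log2 ratio was 0.34 for the 8 genes and -0.02 for all genes.

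**Figure D3:**
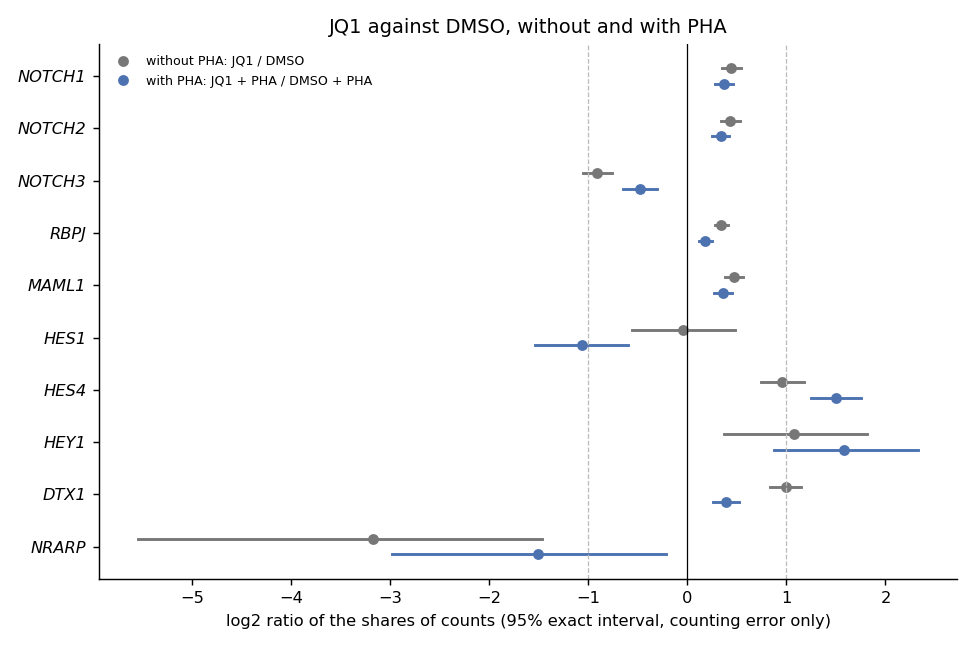
Log2 ratio of count shares between JQ1 and DMSO libraries (x axis) for each gene (y axis), without PHA in gray and with PHA in blue. Points are the ratios, bars their 95% exact intervals for counting error, and dashed lines mark 2-fold. NOTCH3 and NRARP lie to the left of 0 in both comparisons, HES1 lies near 0 without PHA and to the left with it, and the remaining 7 genes lie to the right in both.

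The JQ1 ratios with and without PHA come from separate pairs of libraries and can be set against each other. HES1 differed most, by -1.02 on the log2 scale (95% interval for counting error -1.69 to -0.35), and DTX1 by -0.60 (-0.80 to -0.40). HES4 was shifted by 0.54 (0.21 to 0.86) and NOTCH3 by 0.44 (0.21 to 0.66), and RBPJ by -0.16 (-0.25 to -0.07). For NOTCH1, NOTCH2, MAML1 and HEY1 the interval included 0, the widest being that of HEY1, from -0.46 to 1.47. No difference is given for NRARP because of its 3 counts with JQ1. An interval that excluded 0 was found for 42.1% of 11428 genes, and one that also reached 1 in size for 4.26%. HES1 was in the smaller class, and DTX1, HES4, NOTCH3 and RBPJ were in the larger one only.

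PHA was compared with no PHA to describe activation. In DMSO-treated cells, HES1 was 1.91-fold higher with PHA (log2 ratio 0.93, 0.49 to 1.39) and DTX1 1.76-fold higher (0.81, 0.65 to 0.97). NOTCH3 was 1.68-fold lower (-0.75, -0.89 to -0.61) and HES4 1.46-fold lower (-0.54, -0.82 to -0.26). NOTCH1 (1.14-fold), NOTCH2 (1.12-fold) and MAML1 (1.09-fold) were slightly higher with PHA. For RBPJ, HEY1 and NRARP no difference was detectable at this depth, with intervals of -0.01 to 0.13, -1.07 to 0.69 and -1.28 to 0.51.

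Of the 8 genes above the limit, 0 were past 2-fold with PHA in DMSO, against 3.29% of all genes (2.10% higher and 1.19% lower). The interval lay above 0 for 5 and below 0 for 2, against 24.7% and 25.1% of all genes.

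In JQ1-treated cells, DTX1 was 1.16-fold higher (0.21, 0.09 to 0.33) and NOTCH1 1.08-fold higher (0.11, 0.03 to 0.20), and NOTCH3 was 1.24-fold lower (-0.32, -0.49 to -0.14) and RBPJ 1.07-fold lower (-0.10, -0.16 to -0.04). HES1, at -0.08 (-0.62 to 0.45), and HES4, at -0.00 (-0.18 to 0.18), showed no detectable difference, and the intervals of NOTCH2, MAML1 and HEY1 also included 0. NRARP, with 7 counts against 3, had a log2 ratio of 1.30, too imprecise to read (-0.83 to 3.89). Of the 8 genes, 0 were past 2-fold, against 1.04% higher and 1.03% lower among all genes, and the interval lay above 0 for 2 and below 0 for 2, against 15.6% and 15.7%. The median log2 ratio of the 8 genes was 0.14 in DMSO and 0.00 in JQ1, beside -0.01 and -0.00 for all genes. The PHA comparisons share their libraries with those of JQ1 and are not independent of them.

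**Figure D4:**
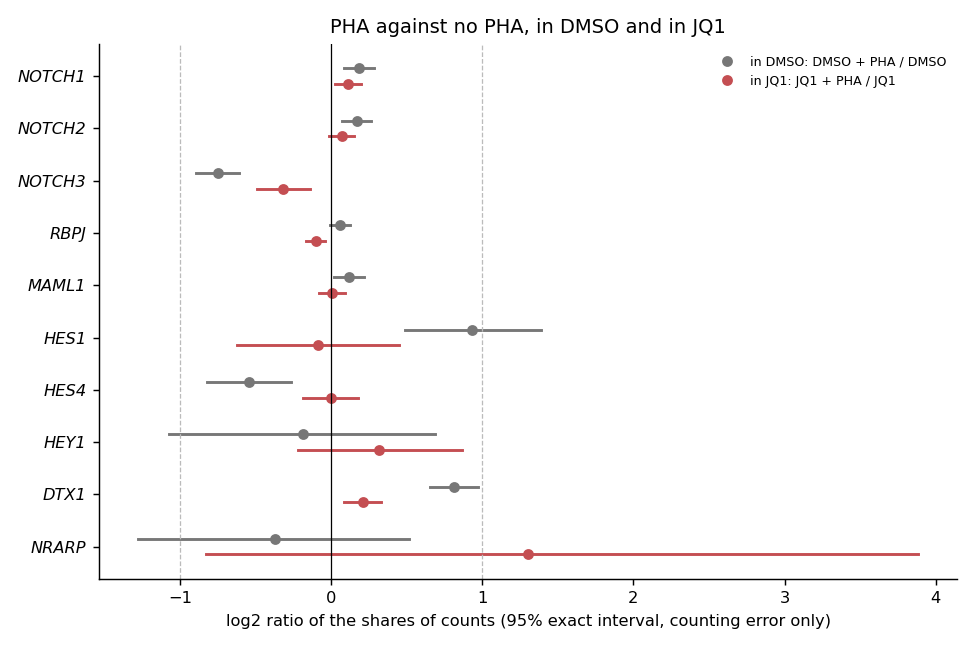
Log2 ratio of count shares between libraries with and without PHA (x axis) for each gene (y axis), in DMSO in gray and in JQ1 in red, with 95% exact intervals for counting error as bars and dashed lines at 2-fold. HES1 (0.93), DTX1 (0.81), NOTCH3 (-0.75) and HES4 (-0.54) lie away from 0 in DMSO, and in JQ1 their ratios are between -0.32 and 0.21.

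Genes with a pattern most like that of a receptor or target were sought by the root mean square difference of centered log2 FPKM over the 4 libraries, which is a likeness over few points that share their depth. For NOTCH1 the nearest genes were BCDIN3D (0.01), GEN1 (0.01) and RP11-27I1.4 (0.02), and the nearest of the 8 was NOTCH2 at 0.02. Within 0.1 of NOTCH1 lay 951 genes. HES4, which had the widest range of the 8, was nearest to RIMKLB (0.03) and RP11-797A18.6 (0.04), with 1 gene known only by a clone name between them (0.03). Within 0.1 of HES4 lay 12 genes, and the nearest of the 8, MAML1, was at 0.46. NOTCH1 varied less over the libraries than HES4, with a standard deviation of log2 FPKM of 0.217 against 0.643. Since 0.1 is a fixed distance, the 951 and 12 genes do not measure how common each pattern was.

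The wider pathway was described from lists of 85 genes grouped by role, all found in the files, of which 55 averaged an FPKM of 1 or more. This limit was set on deposited FPKM, so the length behind the FPKM also affects which genes passed it. JQ1 without PHA left 5 of the 55 at least 2-fold higher and 6 lower, against 5.22% and 8.65% of all genes. With PHA 4 were higher and 6 lower, against 3.69% and 8.00%. PHA left 2 higher and 0 lower in DMSO, against 2.10% and 1.19%, and 1 higher and 0 lower in JQ1, against 1.04% and 1.03%. The median log2 ratios of the 55 genes in the same order were 0.10, 0.10, 0.09 and 0.00, beside -0.01, -0.02, -0.01 and -0.00 for all genes. NOTCH3, NRARP and DTX1 stand in more than one of the lists, and MYC, HES1 and HES4 are among the genes counted here.

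Ligands were scarce. None of the 8 reached a mean FPKM of 1, and the highest, JAG2, had FPKM of 0.719 under DMSO, 0.562 under JQ1, 0.780 under DMSO + PHA and 0.625 under JQ1 + PHA. Of the proteases that cut the receptor, 8 of 9 were above the limit and none passed 2-fold in any comparison, among them ADAM10, which makes the cut outside the membrane, and NCSTN, a γ-secretase subunit. PSEN2 was listed at 0 in every library.

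MFNG, a Fringe enzyme that adds sugar to the receptor and so tunes its choice of ligand, was the gene of 3 glycosyltransferases above the limit that passed 2-fold. It had FPKM of 4.95 under DMSO, 1.23 under JQ1, 4.08 under DMSO + PHA and 1.66 under JQ1 + PHA, 4.01-fold lower with JQ1 without PHA and 2.45-fold lower with it.

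Genes of ubiquitination and trafficking included the largest ratio of the lists. NEURL1B, a Neuralized E3 ligase that acts on ligands, had 21 counts with DMSO, 359 under JQ1, 315 under DMSO + PHA and 460 under JQ1 + PHA. It was 16.3-fold higher with JQ1 (log2 ratio 4.03, 3.40 to 4.74) and 14.3-fold higher with PHA (3.84, 3.20 to 4.55), while JQ1 in the presence of PHA gave 1.54-fold. NEURL1B had an FPKM of only 0.167 in the DMSO library, by which both of the large ratios are divided. Its paralog NEURL1 was lower with JQ1, by 2.44-fold in resting cells and 2.11-fold after PHA. AAK1, a kinase of the endocytic machinery, was 3.13-fold and 2.59-fold higher in the same comparisons.

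Among acetyltransferases that serve the Notch complex, EP300, CREBBP and KAT2B were higher with JQ1 and KAT2A was lower. EP300 was 1.62-fold higher without PHA and 1.46-fold higher with it, and CREBBP 1.51-fold and 1.56-fold. KAT2B had FPKM of 2.46, 8.81, 3.26 and 8.47 in DMSO, JQ1, DMSO + PHA and JQ1 + PHA, and its paralog KAT2A had 10.4, 3.32, 7.17 and 3.36. KAT2B was therefore 3.59-fold higher with JQ1 and KAT2A 3.14-fold lower without PHA, and 2.60-fold higher and 2.14-fold lower with PHA. Of the repressors, the Groucho genes TLE4 and TLE2 moved apart without PHA, TLE4 being 2.79-fold higher with JQ1 and TLE2 2.15-fold lower. In the presence of PHA none of the 12 repressor genes above the limit passed 2-fold, TLE4 being 1.79-fold higher and TLE2 1.97-fold lower.

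HEYL, another repressor of the HES and HEY group, had FPKM of 1.87, 0.999, 2.19 and 0.880 in the order DMSO, JQ1, DMSO + PHA and JQ1 + PHA. It was lower with JQ1, by 1.87-fold in resting cells and 2.49-fold after PHA. HES3 and HES5 had no read in any library.

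Of 14 genes described as Notch targets in T cells or T-cell leukemia, 11 were above the limit. IL7R, the receptor chain for interleukin-7, was lower with JQ1, by 2.70-fold in resting cells and 3.02-fold after PHA. MYC was 2.46-fold and 2.96-fold higher. IL7R had FPKM of 1.68 under DMSO, 0.622 under JQ1, 1.66 under DMSO + PHA and 0.550 under JQ1 + PHA. MYC had 0.629, 1.55, 0.918 and 2.72 in the same order, from 106, 273, 162 and 454 counts. Thus IL7R exceeded a deposited FPKM of 1 only in the libraries without JQ1, and MYC only in those with it. Where a gene falls against 1 depends on the length behind its FPKM, and MYC had at least 106 counts in every library. TCF7, a transcription factor of early T cells, had FPKM of 17.6 under DMSO, 8.47 under JQ1, 19.2 under DMSO + PHA and 21.4 under JQ1 + PHA, so that JQ1 went with a 2.07-fold lower level in resting cells and a 1.12-fold higher one after PHA. GATA3 was 2.12-fold higher with PHA in DMSO and 1.14-fold higher in JQ1. PTCRA, the pre-TCR α chain, was below the limit and was chosen after its values were seen. It had 48 counts with DMSO, 4 under JQ1, 28 under DMSO + PHA and 0 under JQ1 + PHA. Without PHA it was 12.5-fold lower with JQ1 (log2 ratio -3.65, -5.58 to -2.20). With PHA the ratio was 8.83-fold lower when 3 counts were put in place of 0 in the JQ1 + PHA library. For the observed 0 against 28 counts, which give no finite ratio, the exact interval had a lower bound of 6.72-fold lower.

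**Figure D5:**
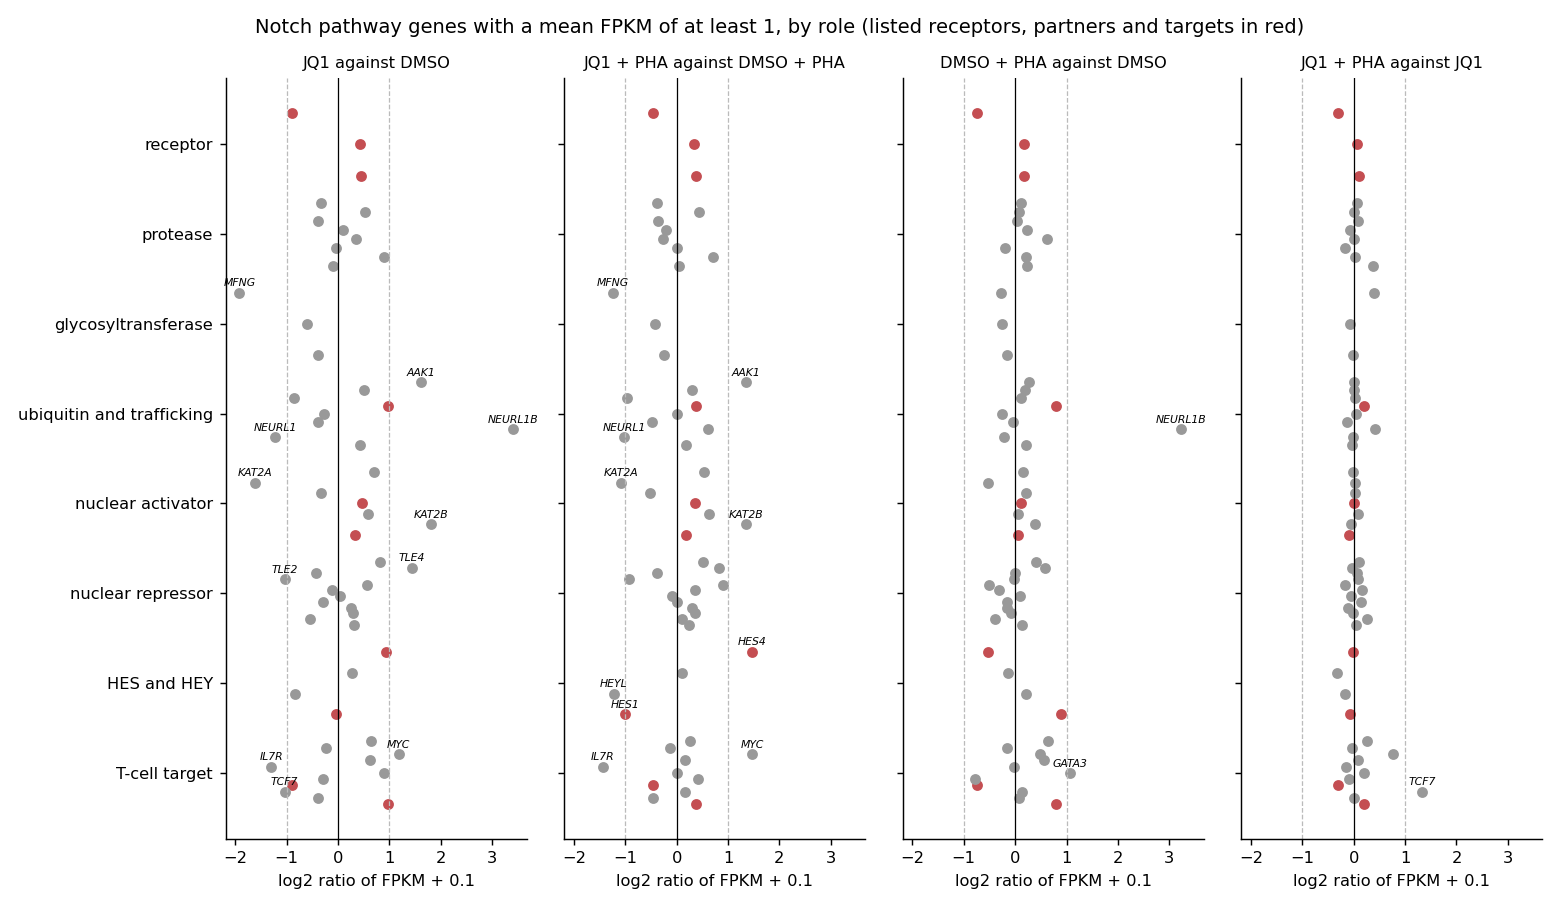
Log2 ratio of FPKM + 0.1 (x axis) for the pathway genes averaging an FPKM of 1 or more, in rows by role (y axis), 1 panel for each comparison. Each point is a gene, the receptors, partners and targets described above are in red, names are written for genes past 2-fold and dashed lines mark that limit. The JQ1 panels hold 11 and 10 such genes, and the PHA panels hold 2 and 1.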

How the data were processed

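RNA-seq of Jurkat cells in 4 conditions, with 1 library each, was taken as deposited. Per the labels, RNA was extracted with TRIzol. The paper's methods name a stranded mRNA kit, the labels a universal kit, and neither gives the strand setting of the counting. According to the paper's methods the reads were aligned to GRCh38 with Hisat2 2.0.4; the submitters' processing notes also name TopHat2 2.0.9 and Cufflinks 2.1.1. The authors deposited raw read counts per gene and FPKM. The counting program and the annotation release are not given in the sources used here.

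Total counts were 18620954 to 19685401. Log2 ratios of FPKM were computed after adding 0.1, for genes averaging an FPKM of 1 or more, and 2-fold was the limit. Shares of counts were compared with 95% exact (Clopper-Pearson) intervals, and differences of log2 ratios with normal intervals from Poisson error. A fold against 0 counts was computed against 3. No significance test was made, since a condition had 1 library. The intervals were tried on simulated counts with Poisson error alone and equal library sizes, which cannot show how libraries vary. The 2-fold call tried there used counts after adding 1, not FPKM.

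All 10 genes were named, and from the role lists genes past 2-fold, up to 4 a group, with HEXIM1 and CD69 as checks. Genes and lists were chosen with earlier results of these data known. Strand and exons came from GENCODE release 44. Alternatives were the pseudocount, the filter, the fold limit and the scaling. Exon-union length and a protein-coding background were added after seeing the data. Software was Python 3.11.15, numpy 2.4.6, pandas 2.3.3, scipy 1.17.1, matplotlib 3.10.9 and R 4.3.3. Scaling factors alone were taken from edgeR 4.0.16 (TMM) and from DESeq2 1.42.0.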

Additional observations from a re-analysis of the deposited data

Results flagged for a closer look

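HES1 and RBPJ are listed because their ratios of PHA to no PHA had opposite signs in DMSO-treated and JQ1-treated cells, with an interval that left out 0 in 1 of them, and the difference was not tested, since each condition had 1 library. The log2 ratio of HES1 was 0.935 in DMSO and -0.0848 in JQ1, the interval of the latter including 0. That of RBPJ was 0.0606 in DMSO, with an interval that included 0, and -0.0999 in JQ1. The differences are the same quantities as those of the JQ1 ratios with and without PHA given above. They were -1.02 for HES1 (-1.69 to -0.35) and -0.16 for RBPJ (-0.25 to -0.07), with intervals for counting error only.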

How the results depend on the processing

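No paired analysis was possible because each condition had 1 library, and for the same reason no library could be left out. For JQ1 against DMSO without PHA, the number of Notch genes past the fold limit, 0 higher and 0 lower, became 2 higher and 1 lower at a limit of 1.5-fold, 1 higher with TMM or DESeq2 scaling, and 1 lower with no filter, where NRARP was counted. With PHA, 1 higher became 2 with no filter, where HEY1 was counted, and 1 lower became 2 with no filter, where NRARP was counted, and 0 with a pseudocount of 1, a mean FPKM of at least 5, TMM or DESeq2 scaling or centering on the median gene. For PHA in DMSO, 0 higher and 0 lower became 2 and 1 at 1.5-fold. Of 209 alternative values for single genes, 207 stayed within the half-width of the counting interval, 0 reversed and 2 moved, both with a pseudocount of 1: NOTCH3 for JQ1 against DMSO, from -0.89 to -0.73, and HEY1 for JQ1 with PHA, from 1.08 to 0.29. The intervals of the low genes were wide: for JQ1 without PHA, NRARP went from -2.24 to -0.71 with a pseudocount of 1 and -3.04 with 0.01, and HEY1 from 0.72 to 0.19 and 1.02. All of these counted as within the half-width. The -0.71 of NRARP lay outside its counting interval (-5.55 to -1.47), and the 0.19 of HEY1 outside its own (0.37 to 1.82). Apart from the changes that follow from the filter or the limit itself, the cause was not tested. Scaling shifted the median of all genes by less than 0.1. Against protein-coding genes alone, chosen after seeing the data, the 2-fold shares were 4.23% higher and 8.46% lower for JQ1 and 2.93% and 7.83% for JQ1 with PHA. The low counts of HEY1 (23 to 65) and NRARP (3 to 26) limited the precision of their ratios.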
